A study of Mus musculus with 8 samples.

Results

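Of 17068 m6A peaks mapped in chromatin-associated RNA, 568 (3.33%) lay away from annotated genes. A peak was placed here when its midpoint lay outside every GENCODE gene of its own strand, was not within 10 kb past the end of a same-strand protein-coding or lncRNA gene, and was not inside such a gene of the opposite strand. The remaining peaks comprised 15815 inside same-strand genes, 431 within 10 kb downstream of a gene and 254 antisense to one. The RNA came from the chromatin of E14 mESC, a single mouse embryonic stem cell line, grown without feeders on gelatine in medium with serum and LIF, and no group carried any further treatment. Libraries formed 4 groups of 2, namely m6A-precipitated RNA and its input with the Synaptic Systems antibody (SySy) and m6A-precipitated RNA and its input with the Abcam antibody. The paper names a different library kit for each antibody, whereas the sample labels name the same kit for all libraries. If the kits differed, antibody and kit cannot be told apart in any comparison of the lists below. The authors called peaks on the pooled duplicates and sorted them into 3 confidence groups. Cfg1 held 5277 peaks called with both antibodies, Cfg2 held 5472 called with SySy where the Abcam signal stayed under the threshold, and Cfg3 held 6319 called with Abcam only.

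m6A is deposited on adenosines of RNA polymerase II transcripts by the METTL3 and METTL14 methyltransferase complex while the RNA is being made, preferentially in a short motif whose best known form is GGACT. RNA held on chromatin is rich in unspliced and short-lived transcripts. Transcripts known to arise outside annotated genes include upstream antisense RNAs of divergent promoters, enhancer RNAs, extended or alternative first exons, read-through RNA and transcripts that start in repeats such as endogenous retroviruses. The antibodies used do not distinguish m6A from m6Am, the related mark next to the RNA cap.

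The lists gave intervals and strands but no peak height, since the score was 0 for all 17068 peaks, and no value per library, so sequencing depth is unknown here. All 95% intervals (Wilson for a share, Newcombe for a difference) and p-values cover the counting of peaks only, and peaks are not independent replicates. The labelled cell type was checked on which genes carried a same-strand peak of any list. Of 26 pluripotency factors 19 did, among them Pou5f1, Sox2, Nanog, Klf4 and Esrrb, against 1 of 12 fibroblast or feeder markers (Fn1) and 0 of 9 primitive endoderm markers. The share of all genes with a peak is not given here. A marker without a peak cannot be read as not expressed, so these counts do not show that other cells were absent.

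Examples show what these intervals look like. The following 3 Cfg1 peaks were chosen from the members with 2 or more GGACT that lay outside RefSeq genes too and were under 50% repeat-masked. All sequences are RNA-sense from GRCm38 (the coordinates of mm10), written 5′ to 3′, with GGACT in capitals.
Cfg1 peak at chr1:120307181-120307359, minus strand, between Marco and Steap3: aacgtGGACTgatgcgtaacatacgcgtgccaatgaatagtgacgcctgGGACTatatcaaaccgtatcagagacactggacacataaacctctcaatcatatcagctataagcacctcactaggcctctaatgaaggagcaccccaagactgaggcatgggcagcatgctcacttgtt
Cfg1 peak at chr11:33541082-33541275, plus strand, opposite to and between Ranbp17 and Gabrp: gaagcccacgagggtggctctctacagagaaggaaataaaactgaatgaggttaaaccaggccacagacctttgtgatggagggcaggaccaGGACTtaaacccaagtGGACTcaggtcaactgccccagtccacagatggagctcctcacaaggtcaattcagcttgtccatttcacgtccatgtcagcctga
Cfg1 peak at chr14:57524549-57524798, minus strand, beside the Il17d start: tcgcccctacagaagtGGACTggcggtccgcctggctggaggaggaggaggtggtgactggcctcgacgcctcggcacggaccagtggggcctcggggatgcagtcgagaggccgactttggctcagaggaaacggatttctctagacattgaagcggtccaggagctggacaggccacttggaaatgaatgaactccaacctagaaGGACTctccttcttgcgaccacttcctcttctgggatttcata
The peak beside Il17d, which encodes a cytokine, had its midpoint 103 nt behind the start of that gene and ran in the opposite direction. The nearest gene to the first peak was C1ql2 on the opposite strand, at 33312 nt. Against these, the next pair show a SySy-called and an Abcam-only peak without any GGACT.
Cfg2 peak at chr14:115041050-115041214, plus strand, before Mir17hg: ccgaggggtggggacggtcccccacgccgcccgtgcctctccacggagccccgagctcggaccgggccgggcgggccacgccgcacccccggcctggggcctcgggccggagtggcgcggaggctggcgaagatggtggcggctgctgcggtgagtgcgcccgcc
Cfg3 peak at chrX:95966557-95966804, minus strand, before Las1l: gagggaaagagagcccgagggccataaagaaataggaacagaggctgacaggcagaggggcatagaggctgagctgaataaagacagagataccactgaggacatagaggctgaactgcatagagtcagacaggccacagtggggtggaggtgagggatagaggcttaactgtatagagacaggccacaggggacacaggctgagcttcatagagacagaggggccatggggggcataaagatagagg
The peak before Mir17hg, the host transcript of the Mir17 miRNA cluster, was 81.2% G and C, and the peak before Las1l was 53.6%.

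The first comparison asked whether peaks away from genes took the same share of each list. They made up 2.08% of Cfg1 (110 of 5277, interval 1.73 to 2.51) and 2.19% of Cfg2 (120 of 5472, 1.84 to 2.62), against 5.35% of Cfg3 (338 of 6319, 4.82 to 5.93). The share in Cfg1 was lower than that in Cfg3 (difference -3.26 points, interval -3.94 to -2.59, adjusted p = 3.3e-20, two-sided Fisher's exact test). Cfg2 was also lower than Cfg3 (difference -3.16 points, interval -3.84 to -2.48, adjusted p = 3.0e-19, two-sided Fisher's exact test). Cfg1 and Cfg2 differed by -0.11 points, with an interval of -0.659 to 0.443 (adjusted p = 0.74, same Fisher's exact test, 3 tests in all). The members inside RefSeq genes were then left out, 52 of Cfg1 and 33 of Cfg2, with all other peaks kept. Cfg1 minus Cfg2 was then -0.49 points (adjusted p = 0.03, Fisher's exact test).

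**Figure D1:**
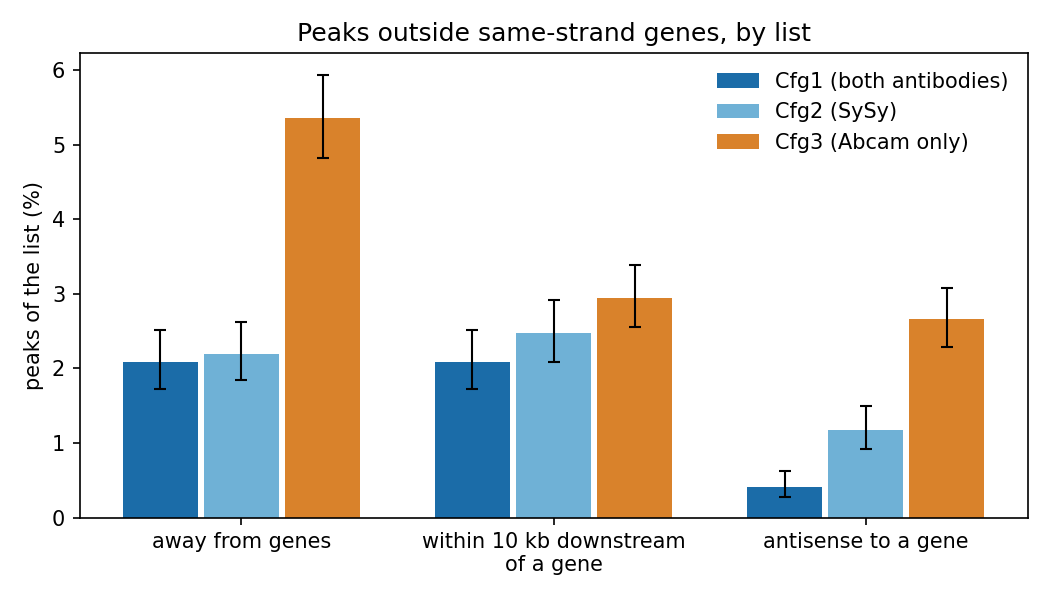
Share of the peaks of each list (%, y axis) that lay away from genes, within 10 kb downstream of a same-strand gene, or antisense to a gene, with bars for Cfg1, Cfg2 and Cfg3 and 95% Wilson intervals. Away from genes, Cfg3 stands at 5.35%, against 2.08% for Cfg1 and 2.19% for Cfg2.

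Members lay on every chromosome from 1 to 19 and on X and Y, and none of the 6 mitochondrial peaks was one. They made up 44.2% of the 43 peaks on chromosome Y (19 members, 16 of them Cfg3) and 8.52% of the 399 peaks on chromosome X, but 0.884% of the 1358 peaks on chromosome 7. On chromosome Y, 14 of the 19 members lay in 1 run of Cfg3 peaks over 8512 nt. The 10 kb limit cut through continuous runs of peaks. On one side of it, 5 peaks nearest to the limit lay 9861 to 9962 nt past the ends of Nit1, Nespas, Lncenc1 and D630011A20Rik, and 2 of these 5 had GGACT. On the other side, the 5 members nearest to it lay 10152 to 10403 nt past D630011A20Rik, Vmn1r211 and Gm21748, and 2 of them had GGACT. Adjacent sub-peaks of 1 called peak past D630011A20Rik were thus divided, at 9861, 10152 and 10337 nt.

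The second question was whether these peaks carry the m6A motif. GGACT was found in 47.3% of Cfg1 members (52 of 110, interval 38.2 to 56.5), 35.8% of Cfg2 members (43 of 120, 27.8 to 44.7) and 17.2% of Cfg3 members (58 of 338, 13.5 to 21.5). Over all peaks, the background share was 38.2% for the Cfg1 list, 32.2% for the Cfg2 list and 17.1% for the Cfg3 list. Cfg1 members exceeded Cfg3 members by 30.1 points (interval 20 to 40.1, adjusted p = 1.8e-08, two-sided Fisher's exact test over 12 comparisons). Cfg2 members exceeded Cfg3 members by 18.7 points (9.54 to 28.3, adjusted p = 3.4e-04, same Fisher's exact test). The difference of 11.4 points between Cfg1 and Cfg2 members had an interval of -1.27 to 23.7 (adjusted p = 0.16, same Fisher's exact test). Among the members outside RefSeq genes as well, the shares were 53.4% for Cfg1, 36.8% for Cfg2 and 16.4% for Cfg3, and Cfg1 exceeded Cfg3 by 37.1 points (adjusted p = 1.6e-07, Fisher's exact test).

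Intervals differed in width, with medians of 199 nt for Cfg1 members, 150 nt for Cfg2 members and 140 nt for Cfg3 members, so windows of 200 nt were also counted. Within 100 nt of the midpoint GGACT was found for 45.5% of Cfg1, 45.8% of Cfg2 and 21.0% of Cfg3 members, against 39.0%, 36.6% and 22.5% of all peaks of these lists and 14.6% of all 26474260 windows of 200 nt on both strands of the nuclear chromosomes. In windows of the same width as each peak, shifted 500 nt 5′, the share was 13.6%, 13.3% and 13.6% in the same order. Shifted 500 nt 3′, it was 22.7%, 12.5% and 12.4%. The 50 nt just 5′ of the midpoint held 22.7 GGACT per 100 Cfg1 members, 17.5 per 100 Cfg2 members and 7.40 per 100 Cfg3 members. The windows shifted by 500 nt had the width of the peak, and 200 nt is wider than the median Cfg3 member. These flanks therefore compare with the share in the interval, not with the 200 nt windows. The interval share was above both flanks in the members of each list, at 47.3% in Cfg1 and 35.8% in Cfg2. In Cfg3 members it was 17.2% (interval 13.5 to 21.5), against 13.6% (10.4 to 17.7) and 12.4% (9.33 to 16.4) in the flanks. These Cfg3 intervals overlap, and the differences from the flanks were not tested.

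**Figure D2:**
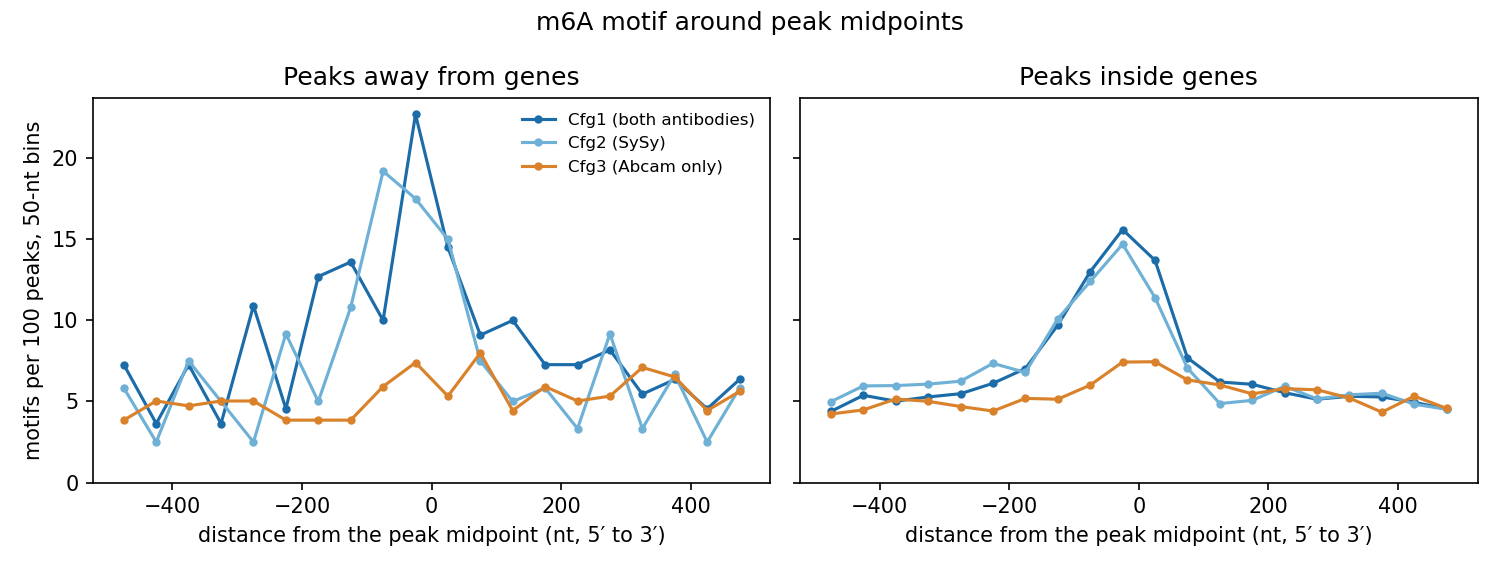
Number of GGACT per 100 peaks in bins of 50 nt (y axis) by distance from the peak midpoint in nt, 5′ to 3′ (x axis), for peaks away from genes and for peaks inside genes, with a line for each list. The bin just before the midpoint holds 22.7 per 100 in Cfg1 members and 7.40 per 100 in Cfg3 members.

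Set against peaks inside genes of the same list, members did not pass the test for GGACT in any list. Cfg1 members exceeded Cfg1 peaks inside genes by 9.36 points (47.3% against 37.9%, interval 0.179 to 18.7, p = 0.048, adjusted p = 0.17, two-sided Fisher's exact test over 18 comparisons). Peaks of a class within 5 kb on 1 strand were then joined as a locus, and 1 peak was kept for each locus. This was the 5′-most peak of each list in the locus. With both classes reduced, the difference was 12.7 points (adjusted p = 0.15, Fisher's exact test). It was 16.0 points where the members alone were reduced in this way (adjusted p = 0.026, Fisher's exact test), and -2.27 points with GGAC as the motif. Cfg2 members had 35.8% and Cfg2 peaks inside genes 32% (difference 3.85, interval -4.27 to 12.8), and Cfg3 had 17.2% in both (difference -0.01, interval -3.79 to 4.48). For GGACT, differences from downstream and antisense peaks did not pass the test either, with intervals as wide as -31.7 to 10.5 points for the 22 antisense peaks of Cfg1. In Cfg3 the difference from antisense peaks was 2.28 points (adjusted p = 0.78), but with other motifs members exceeded antisense peaks, by 15.2 points with GGAC (adjusted p = 0.0077) and by 12.5 points with A also allowed at base 1 or base 2 of GGACT (adjusted p = 0.035, Fisher's exact tests).

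**Figure D3:**
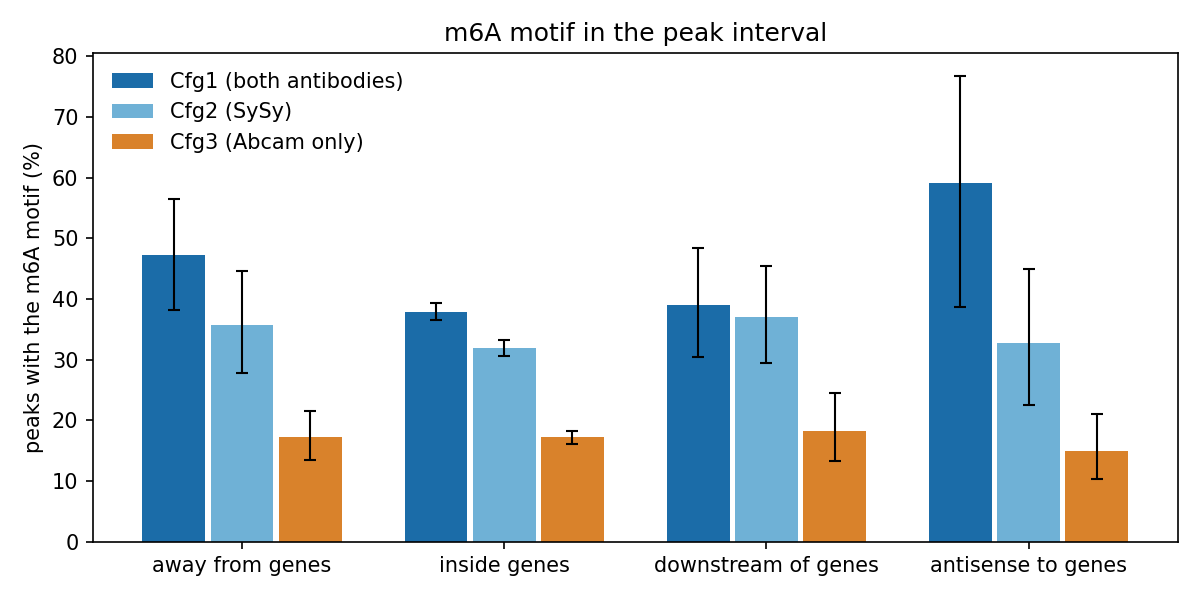
Share of peaks with GGACT in the interval (%, y axis) for peaks away from genes, inside genes, downstream of genes and antisense to genes, with bars for the 3 lists and 95% Wilson intervals. Away from genes the bars stand at 47.3% (Cfg1), 35.8% (Cfg2) and 17.2% (Cfg3), and inside genes at 37.9%, 32% and 17.2%.

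Membership depended on the gene annotation used. A same-strand gene of the NCBI RefSeq annotation, which was not part of the rule, contained 47.3% of Cfg1 members (52 of 110, interval 38.2 to 56.5), 27.5% of Cfg2 members (33 of 120, 20.3 to 36.1) and 18.6% of Cfg3 members (63 of 338, 14.8 to 23.1). A RefSeq exon contained 35.5% of Cfg1 members (27.1 to 44.7), 20.8% of Cfg2 members (14.5 to 28.9) and 6.51% of Cfg3 members (4.34 to 9.66). Over all peaks of these lists, RefSeq genes contained 96.4%, 94.0% and 89.3%, and RefSeq exons 91.5%, 85.9% and 40.0%. Downstream peaks gave 45.5%, 31.9% and 17.2% for genes, and 35.5%, 26.7% and 12.9% for exons. Antisense peaks gave 18.2%, 14.1% and 6.55% for genes. Of the 148 members in RefSeq genes 74 lay in protein-coding genes alone and 59 in lncRNA genes alone, and 80 different RefSeq genes were involved. These shares were counted after the peaks had been seen and were not tested.

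**Figure D4:**
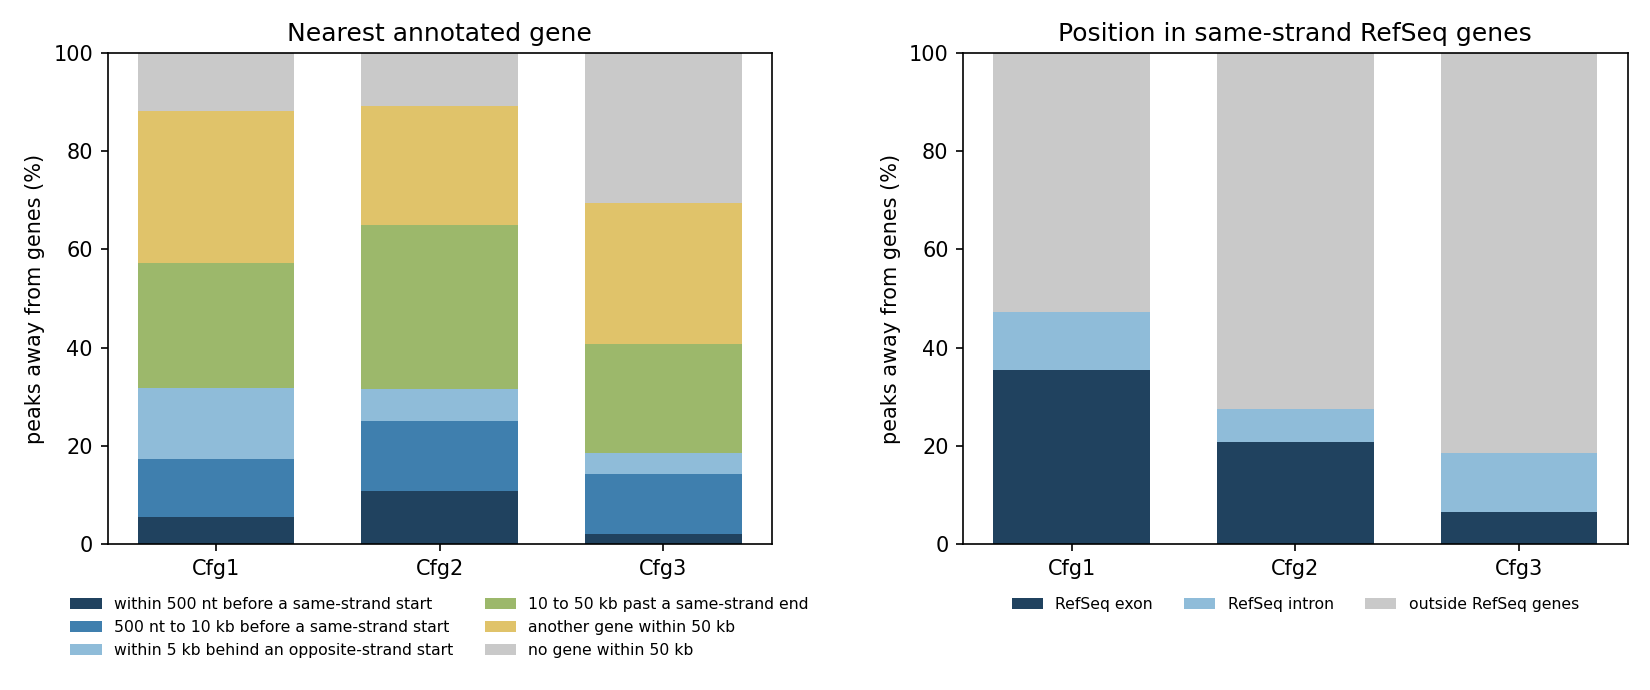
Composition of the peaks away from genes (%, y axis) in Cfg1, Cfg2 and Cfg3, on the left by the nearest annotated gene, with each peak in the first class that applied from the bottom up, and on the right by position in RefSeq genes. No gene lay within 50 kb of 11.8% of Cfg1 and 10.8% of Cfg2 members, against 30.5% of Cfg3 members, and RefSeq exons held 35.5%, 20.8% and 6.51%.

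By position, a first group lay just before an annotated start on the same strand. Distances were taken from the peak midpoint, so an interval could cross the start. Within 500 nt of such a start were 26 members, namely 6 of Cfg1, 13 of Cfg2 and 7 of Cfg3, which is 5.45%, 10.8% and 2.07% of the members of each list. RefSeq already placed 21 of the 26 inside a gene. The Cfg1 members stood before Fzd7 (24 nt), a Wnt receptor, Gli2 (190 and 398 nt), a transcription factor of Hedgehog signalling, Gm340 (138 nt, inside RefSeq Lcor, a transcriptional corepressor), Tcf15 (283 nt), a basic helix-loop-helix factor, and Hcfc1 (160 nt), a transcriptional co-regulator.
Of these 6, only the Fzd7 peak held GGACT.
Among the 13 Cfg2 members were peaks before Smad7 (10 nt), an inhibitor of TGF-beta signalling, Cdk12 (42 nt), a kinase of the RNA polymerase II tail, Med13 (427 nt), a Mediator subunit, Vps54 (107 nt), a tethering factor of vesicle traffic, and Fbxl17 (145 nt), an F-box protein. These 5 peaks had the highest G and C content of the 13, with 81.9% for Vps54, 81.6% for Fbxl17, 77.7% for Med13, 76.0% for Smad7 and 75.8% for Cdk12, against a median of 45.9% for all Cfg2 members. Of the 5 the Smad7 peak held GGACT, and of all 13 there were 5 that did. The other Cfg2 members of this group stood before Gli2, Abr (a pair), BC005537, Gm2379, 2010309G21Rik, Gm13110 and Triml1. The Cfg3 members stood before Spata31d1a, 2410003I16Rik (a pair), Platr3, Adrb3, Hcfc1 and Nexmif.

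A further 71 members lay 500 nt to 10 kb before a same-strand start (13 of Cfg1, 17 of Cfg2 and 41 of Cfg3). The peak before Mir17hg printed above was one of them, 1747 nt from the annotated start of the host transcript and 2539 nt from the Mir17 hairpin. It was 1 of 3 SySy-called members within 10 kb of a same-strand miRNA hairpin. The other two were the Lcor peak near Mir8091 and a Cfg2 peak near Mir7230, and neither held GGACT. Of 5 Cfg3 members near a hairpin, 3 also lay near Mir7229 or Mir7230 on the minus strand before Sgsm1, and the remaining pair lay near the predicted hairpins Gm24187 and Gm22195.

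A second group lay behind the start of an opposite-strand gene, where upstream antisense RNAs can arise. Within 5 kb behind such a start were 17.3% of Cfg1 members (19 of 110, interval 11.3 to 25.4), 10.0% of Cfg2 members (12 of 120, 5.81 to 16.7) and 5.33% of Cfg3 members (18 of 338, 3.39 to 8.26). Cfg1 exceeded Cfg3 by 11.9 points (5.33 to 20.3, adjusted p = 9.2e-04, two-sided Fisher's exact test). The call rested on 1 locus behind Vars, since without it the difference was 6.61 points (adjusted p = 0.095, Fisher's exact test), and with 1 peak for each locus it was 6.35 points (adjusted p = 0.27). Cfg2 exceeded Cfg3 by 4.67 points (-0.438 to 11.6, adjusted p = 0.16) and Cfg1 exceeded Cfg2 by 7.27 points (-1.65 to 16.4, adjusted p = 0.17), both by the same Fisher's exact test. Of the 49 members within 5 kb behind a start, 39 lay outside the groups before a same-strand start. RefSeq placed 18 of these 39 inside a same-strand gene. Of the 16 Cfg1 members among the 39, 11 lay in RefSeq exons.
Within 1 kb behind a start were 12 members, 4 of each list.
The Cfg1 members stood behind Il17d (103 nt), Zmat3 (294 nt), an RNA-binding zinc finger protein, Rnpc3 (353 nt), a protein of the minor spliceosome, and Cnot6 (931 nt), a deadenylase, and all 4 held GGACT. The peaks behind Zmat3 and Cnot6 lay in exons of RefSeq lncRNA genes.
The Cfg2 members stood behind H2-M5 (99 nt), Src (396 nt), Smad7's neighbour Gm20544 (431 nt) and Tmem107 (470 nt), and 2 of the 4 held GGACT. The Cfg3 members stood behind Pkd2 (384 nt), Fam208a (583 nt), Igfals (813 nt) and Trim39 (873 nt), and none of the 4 did.

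The largest groups lay farther from genes. Outside the groups above, 143 members (28 of Cfg1, 40 of Cfg2 and 75 of Cfg3) lay 10 to 50 kb past the end of a same-strand gene, which is 25.5%, 33.3% and 22.2% of the lists' members. GGACT was present in 15 of these 28, 13 of 40 and 13 of 75. Another gene lay within 50 kb of 160 members, and no protein-coding or lncRNA gene lay within 50 kb on either strand of 129 members. The last class held 11.8% of Cfg1 members (13 of 110, interval 7.04 to 19.2) and 10.8% of Cfg2 members (13 of 120, 6.44 to 17.7), against 30.5% of Cfg3 members (103 of 338, 25.8 to 35.6). There GGACT was present in 5 of 13 members from Cfg1, 9 of 13 from Cfg2 and 15 of 103 from Cfg3. The nearest gene was at a median distance of 17662 nt from Cfg1 members, 14858 nt from Cfg2 members and 18892 nt from Cfg3 members, and the upper quartile was 31356, 30178 and 61200 nt.

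Members were repeat-masked more often than peaks inside genes. At least 50% of the interval was repeat-masked in the assembly in 30.9% of Cfg1 members (34 of 110, interval 23.0 to 40.1), 37.5% of Cfg2 members (29.4 to 46.4) and 50.0% of Cfg3 members (44.7 to 55.3), against a background of 4.47%, 4.24% and 19.1% over all peaks of these lists. The share was also high outside genes in general, at 34.5%, 23.0% and 39.8% for downstream peaks and 31.8%, 18.8% and 58.9% for antisense peaks, in the same order of lists. As a stricter measure, an interval was called repeated when the median of its 31-base words occurred 10 times or more in the genome. This held for 3.64% of Cfg1 members (4 of 110), 9.17% of Cfg2 members (11 of 120) and 8.58% of Cfg3 members (29 of 338), against 0.536%, 0.505% and 1.30% of the peaks inside genes and 0.910%, 0.804% and 1.93% of all peaks. The excess over peaks inside genes was 3.10 points in Cfg1 (0.874 to 8.45, adjusted p = 0.024), 8.66 points in Cfg2 (4.68 to 15.2, adjusted p = 2.5e-09) and 7.28 points in Cfg3 (4.72 to 10.8, adjusted p = 2.2e-12), each by a two-sided Fisher's exact test. Downstream peaks of Cfg1 were repeated in 13.6% (15 of 110), and the difference of members from them was -10.0 points (adjusted p = 0.065, Fisher's exact test), which passed with a downstream reach of 20 kb (-11.8 points, adjusted p = 0.0089), with the whole interval outside genes (adjusted p = 0.036) and with protein-coding and lncRNA genes alone on the same strand (adjusted p = 0.033). No other difference from downstream or antisense peaks in repeated sequence passed the test by this measure. By the repeat mask, Cfg2 members exceeded antisense peaks by 18.8 points and downstream peaks by 14.5 points (adjusted p = 0.049 for each, Fisher's exact tests). The excess in Cfg1 over peaks inside genes rested on 4 peaks and did not pass with a downstream reach of 20 kb (adjusted p = 0.32, Fisher's exact test). Between the lists, no difference in repeated members passed the test, the intervals being -12.4 to 1.13 for Cfg1 minus Cfg2, -9.06 to 0.972 for Cfg1 minus Cfg3 and -4.69 to 7.57 for Cfg2 minus Cfg3. By the repeat mask, a measure added after the data had been seen, Cfg1 and Cfg2 members were lower than Cfg3 members, with differences of -19.1 points (adjusted p = 0.0018) and -12.5 points (adjusted p = 0.039, Fisher's exact test). At the length of the 75-base reads most members were unique, but a smaller share than of peaks inside genes. Every 75-base word was unique in 88.9% of members (505 of 568), against 97.9% of peaks inside genes and 97.3% of all peaks. For downstream peaks this share was 88.9% as well.

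GGACT was also counted apart in masked and in less masked members. Of members at least 50% masked, 41.2% of Cfg1 (14 of 34), 48.9% of Cfg2 (22 of 45) and 17.2% of Cfg3 (29 of 169) held GGACT, and of the less masked members 50.0% (38 of 76), 28.0% (21 of 75) and 17.2% (29 of 169) did. For Cfg2 these intervals were 35.0 to 63.0 in masked and 19.1 to 39.0 in less masked members. Of peaks inside genes at least 50% masked, 44.6% of Cfg1, 38.2% of Cfg2 and 12.6% of Cfg3 held GGACT. For less masked peaks inside genes the shares were 37.7%, 31.8% and 18.0%. None of these differences was tested.

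With same-strand midpoints within 5 kb of one another joined, the 568 members formed 351 loci, of which 232 held 1 member, 71 held 2, 27 held 3 and 21 held 4 or more. In a locus of 2 or more lay 68.2% of the members from Cfg1, 61.7% of those from Cfg2 and 55.3% of those from Cfg3. Peaks inside genes, joined in the same way, stood at 81.1%, 71.4% and 56.7%. Since called peaks had been split between summits, 35 of the 119 loci with 2 or more members came from 1 called peak, and the members that shared a locus with another called peak were 57.3% in Cfg1, 50.0% in Cfg2 and 42.9% in Cfg3, against 66.3%, 58.2% and 46.0% of the peaks inside genes. In the share of members in a locus of 2 or more, the excess of Cfg1 over Cfg3 was 12.9 points (2.29 to 22.4, adjusted p = 0.058, two-sided Fisher's exact test), and it depended on the setting. It was 19.6 points with loci joined at 2 kb (adjusted p = 0.0013), 8.89 points at 20 kb (adjusted p = 0.17) and 0.63 points without the members inside RefSeq genes (adjusted p = 1, Fisher's exact tests). Of the 119 loci with 2 or more members, 53 held Cfg3 peaks alone, 35 held Cfg1 or Cfg2 peaks and no Cfg3 peak, and 31 held both. Abcam-only members seldom lay beside SySy-called peaks. Within 500 nt of one were 4.14% of Cfg3 members (14 of 338, interval 2.48 to 6.83), and 12.1% of all Cfg3 peaks (764 of 6319) were as close. The share was also low for other Cfg3 peaks outside genes, at 7.53% of downstream (14 of 186) and 2.38% of antisense peaks (4 of 168).

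**Figure D5:**
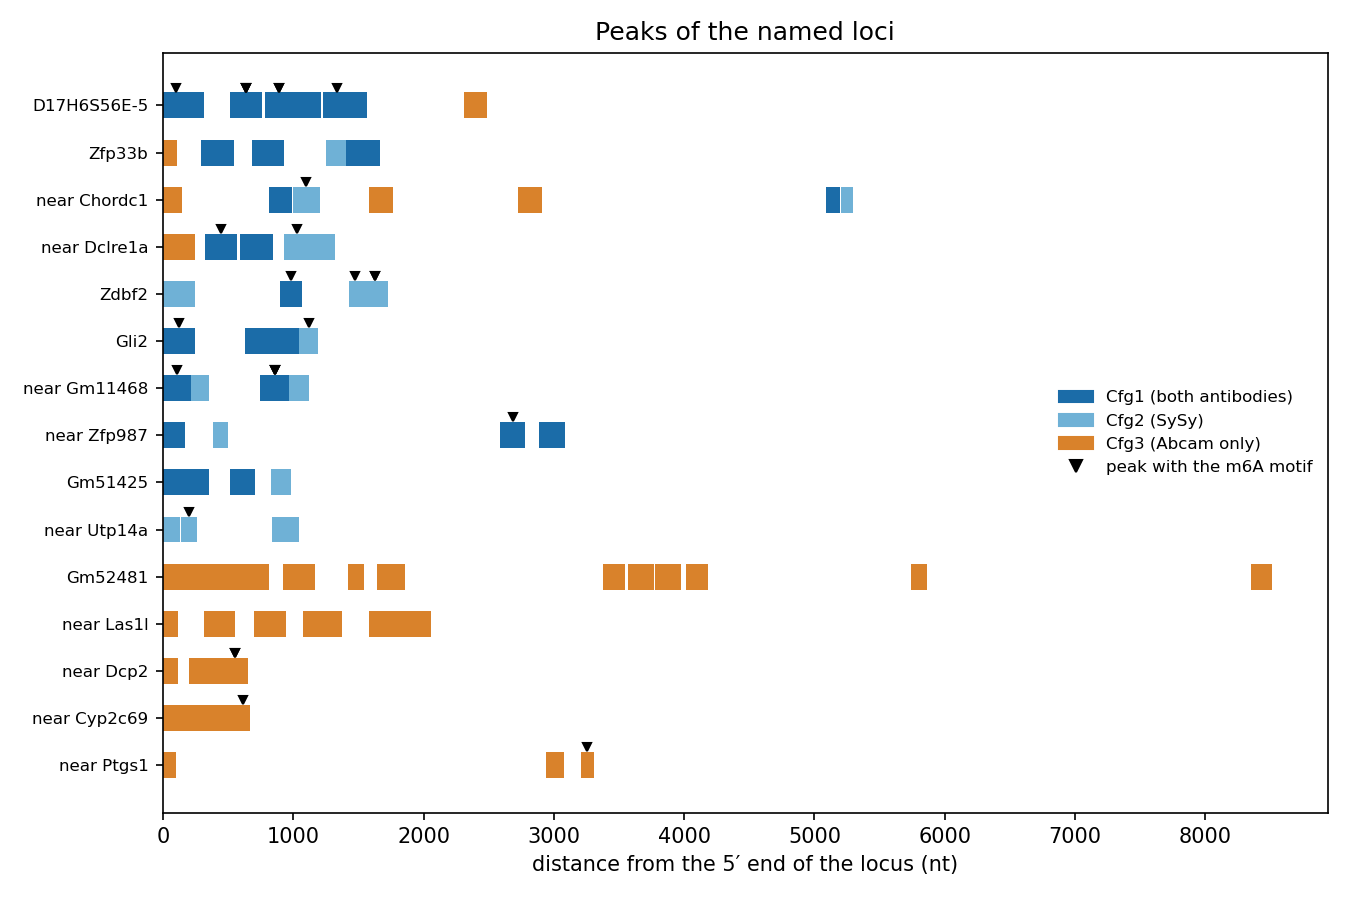
Peaks of the 10 loci with the most SySy-called members (upper rows) and the 5 loci with the most Abcam-only members (lower rows), as blocks by distance in nt from the 5′ end of the locus, coloured by list, with triangles over peaks that hold GGACT. Rows are named by the RefSeq gene around the peaks or the nearest gene. The longest row holds 14 Cfg3 peaks over 8512 nt and has no triangle.

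The locus with the most SySy-called members was chr17:34996839-34999325 on the minus strand, with 7 Cfg1 peaks and 1 Cfg3 peak. All 8 lay in RefSeq exons of D17H6S56E-5, whose nearest GENCODE gene was Vars, the valyl-tRNA synthetase gene, 1760 nt away on the opposite strand. Together 4 of the 8 peaks held 7 GGACT, and one of these held 3. The second was chr5:104582726-104584390, plus strand, with 4 Cfg1, 2 Cfg2 and 1 Cfg3 peaks, all in RefSeq exons of the zinc finger gene Zfp33b. None of the 7 held GGACT.
At chr17:17039269-17040248, plus strand, 3 Cfg1 peaks and 1 Cfg2 peak lay in exons of RefSeq Gm51425, 23939 nt before Zfp960, and none held GGACT. At chr4:146049987-146053074, plus strand, 3 Cfg1 peaks and 1 Cfg2 peak lay 44326 nt before Zfp987 outside any RefSeq gene, and 1 of the 4 held GGACT.

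Of the 10 loci with the most SySy-called members, the one farthest from genes was chr9:17527006-17532302, minus strand, where the nearest gene, Chordc1, lay 759895 nt away. Its 2 Cfg1, 2 Cfg2 and 3 Cfg3 peaks were all 97.8% to 100% masked as repeats, and 1 of the 7 held GGACT. At chrX:48248541-48249587, minus strand, 4 Cfg2 peaks lay 7342 nt behind the start of Utp14a, a gene of ribosome biogenesis. They were 81.5% to 100% masked, and 1 held GGACT. At chr2:166252636-166253759, minus strand, 2 Cfg1 and 2 Cfg2 peaks held 4 GGACT, 3 of them in 1 wholly masked Cfg1 peak. Sequence that was 8.40% to 41.2% masked made up chr19:56511263-56512583, plus strand, where 2 Cfg1, 2 Cfg2 and 1 Cfg3 peaks lay between Plekhs1 (24636 nt before) and Nhlrc2 (35770 nt after), outside RefSeq genes, with GGACT in 1 Cfg1 and 1 Cfg2 peak.

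A pair of loci lay before known regulators, at least in part inside their longer RefSeq genes. At chr1:119053568-119054758, minus strand, 3 Cfg1 peaks and 1 Cfg2 peak ran over 1191 nt. The last midpoint lay 22 nt before the GENCODE start of Gli2, and that interval, 146 nt wide, crossed the start. RefSeq Gli2 contained 3 of the 4 peaks in an intron, and 2 of the 4 held GGACT. At chr1:63231426-63233154, plus strand, 1 Cfg1 and 3 Cfg2 peaks lay in an intron of RefSeq Zdbf2, an imprinted zinc finger gene whose GENCODE start lay 40212 nt farther on. These 4 peaks were 86.8% to 100% masked, 3 of them were repeated, and 3 held GGACT. Zdbf2 was the only one of 20 imprinted cluster genes with a member within 50 kb.

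Among the 26 pluripotency factors only Lefty2, which encodes an inhibitor of Nodal signalling, had a member within 50 kb. Both members there were Cfg1 peaks on the opposite strand, 14316 and 15134 nt from the gene in RefSeq Gm39714, and each held 1 GGACT. None of 20 developmental regulators had a member within that distance, and of 21 hairpins of the ES cell miRNA clusters 4 did, all by way of the 1 peak before Mir17hg. The share of all genes with a member within 50 kb is not given here. The counts for these lists, imprinted cluster genes included, therefore cannot be read as low or high.
Further Cfg1 members among those with the most GGACT were at chr10:79038857-79039106, minus strand, with 3 GGACT and 74.8% masked, and at chr3:22746865-22747064, plus strand, with 2 GGACT and 339010 nt before the next same-strand gene, Gm37021.

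Loci that joined 2 or more Abcam-only members and no other numbered 53, and 14.3% of their 140 peaks held GGACT (20 peaks in 17 loci, interval 9.44 to 21.0), against 17.1% of all Cfg3 peaks. The largest, chrY:90734648-90743159 on the plus strand, held 14 Cfg3 peaks over 8512 nt, of which 12 were at least 50% masked and none held GGACT. The second, chrX:95965442-95967501 on the minus strand, held 8 Cfg3 peaks over 2060 nt, 8598 nt before Las1l, a gene of ribosomal RNA processing. None of the 8 held GGACT and none was over 21.4% masked. Their sequence repeated a short word, as in the peak printed above. ATAGAG occurred 19 times in 7 of these 8 peaks, up to 7 times in 1 peak, and in 10.6% of the other 330 Cfg3 members (35 peaks, up to 3 times in 1 peak). This word was chosen after the sequence had been read and overlaps no GGACT. The other 3 of the 5 largest such loci were chr18:44376372-44377021 (4 peaks, 3580 nt before Dcp2, which encodes an mRNA-decapping enzyme), chr19:39902672-39903338 (4 peaks, 15929 nt before the cytochrome P450 gene Cyp2c69) and chr2:36308193-36311498 (3 peaks, 55971 nt from Ptgs1), and 1 peak in each held GGACT.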

How the data were processed

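Chromatin-associated RNA had been precipitated with each of 2 m6A antibodies and sequenced with its input in 8 libraries. The authors called peaks with MACS2 2.1.1 on pooled duplicates, split them between summits, trimmed them and set each strand by the higher enrichment. The submitters' processing notes name HOMER as well, and the aligner used for these libraries is not given in the sources used here. The deposited score was 0 in all 17068 lines and was not used, and 1 stray strand character was read as plus.

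Peaks were placed by their midpoint on GRCm38 with GENCODE vM21, an earlier release than that of the study, and compared with RefSeq genes of the same assembly. Repeated sequence was measured by genome-wide counts of 31-base and 75-base words and by the repeat mask of the assembly. GGACT was searched on the RNA strand. Two-sided Fisher's exact tests compared shares of peaks, with p-values adjusted after Benjamini and Hochberg in families of 3, 12 and 18 tests and 95% Wilson and Newcombe intervals and a threshold of 0.05. The rule and tests were tested on simulated data first. The members, lists and tests were chosen with earlier results of these data known. Named are the 10 loci with the most SySy-called members, the 5 loci with the most members among loci of Abcam-only peaks, the 5 Cfg1 members with the most GGACT (1 of them is not reported here), members within 10 kb of a miRNA hairpin, members within 50 kb of listed genes and, chosen after their values were seen, those near a gene start. Alternatives varied the reach, gene types, interval rule, peak unit, motif, repeat measure and locus distance. Scripts ran in Python 3.11.15 (numpy 2.4.6, numba 0.67.0, scipy 1.17.1), and figures were drawn in matplotlib 3.10.9.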

Additional observations from a re-analysis of the deposited data

How the results depend on the processing

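The lower share of Cfg1 and Cfg2 peaks away from genes relative to Cfg3, and the higher GGACT share of Cfg1 and Cfg2 members relative to Cfg3 members, kept their direction under all alternatives run and passed the threshold in all but one. That one kept only full-width peaks (28, 8 and 12 members of Cfg1, Cfg2 and Cfg3), where the GGACT differences were 42.9 (Cfg1 minus Cfg3, adjusted p = 0.21) and 37.5 points (Cfg2 minus Cfg3, adjusted p = 0.67, Fisher's exact tests). Values below are differences in points, members minus the other class or first minus second list. The cause of these changes was not tested.

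For the share of the list, Cfg1 minus Cfg2 was 0.13 with a downstream reach of 5 kb, 0.03 with 20 kb and 0.73 with full-width peaks. It was -0.49 without the members in RefSeq genes. For GGACT, Cfg1 minus Cfg2 was -0.38 with 100 nt on either side of the midpoint. Against peaks inside genes, Cfg1 gave 16.0 with 1 peak for each locus of members and -2.27 with GGAC, and Cfg3 gave 0.84 (5 kb), 0.01 (20 kb), 0.17 (whole interval outside), 0.15 (1 peak for each called peak), 1.28 (full width), 1.98 (1 for each locus) and 5.24 (3 motifs, with A also allowed at base 1 or base 2 of GGACT). Against downstream peaks, Cfg1 gave -3.64 (GGAC), Cfg2 gave 0.19 (20 kb), 5.36 (full width), 4.07 (1 for each locus), 0.56 (GGAC) and 0.09 (3 motifs), and Cfg3 gave 0.49 (5 kb), 12.5 (full width), 0.87 (1 for each locus) and 0.38 (3 motifs). Against antisense peaks, Cfg2 gave -2.19 (GGAC) and -7.50 (3 motifs), and Cfg3 gave 15.2 (GGAC) and 12.5 (3 motifs), which passed. With 1 peak for each locus in both classes, the difference from peaks inside genes was 12.7 in Cfg1 and 1.53 in Cfg3, and that from downstream peaks 2.65 in Cfg2.

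For repeated sequence, at 2 copies or more, Cfg1 minus Cfg2 was 2.65, Cfg1 minus Cfg3 0.22, Cfg2 minus Cfg3 -2.43, and members minus antisense peaks 3.64 in Cfg1 and -1.02 in Cfg3. At 100 copies, Cfg2 minus Cfg3 was -0.16 and Cfg1 members minus peaks inside genes 0.81. With words of 75 the differences from peaks inside genes were 0.00 in all 3 lists. With the repeat mask, Cfg1 minus Cfg3 was -19.1, Cfg2 minus Cfg3 -12.5, and Cfg3 members minus antisense peaks -8.93. Cfg2 minus Cfg3 was also -1.13 with same-strand protein-coding and lncRNA genes only, -0.16 with 1 peak for each called peak and -2.27 with 1 for each locus. Against peaks inside genes, Cfg1 gave 1.50 with a reach of 20 kb, and full-width peaks gave 3.49 (Cfg1), 11.9 (Cfg2) and 0.00 (Cfg3). Full-width peaks gave 3.57 for Cfg1 minus Cfg3, and against antisense peaks 3.57 in Cfg1 and -7.69 in Cfg3.

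For loci of 2 or more, Cfg1 minus Cfg2 was -8.93 (full width) and -6.90 (without peaks in RefSeq genes), and Cfg1 minus Cfg3 was 13.9 (whole interval outside), 19.6 (2 kb), 14.8 (without the chromosome Y locus), 8.89 (20 kb) and 0.63 (without peaks in RefSeq genes). Behind opposite-strand starts, Cfg1 minus Cfg3 was 7.72 (1 for each called peak), 6.35 (1 for each locus), 14.3 (full width), 6.71 (without peaks in RefSeq genes) and 6.61 (without the locus behind Vars), Cfg1 minus Cfg2 was -10.7 (full width) and Cfg2 minus Cfg3 was 7.53 (20 kb). Of Cfg3 members, 0% overlapped a SySy-called peak by at least 1 base, as did 0% of all Cfg3 peaks, which were defined as called with Abcam only. Within 5000 nt of a SySy-called peak lay 15.4% of Cfg3 members and 28.5% of all Cfg3 peaks. Of 401 alternative values in all, 327 kept their direction and their side of the threshold. Some alternatives were chosen after seeing the data. They used the repeat mask, left out members in RefSeq genes, left out 1 locus or took 1 peak for each locus in both classes.

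No paired analysis was possible because the lists were called on pooled duplicates and hold no value per library, and for the same reason no replicate was left out. The lists hold no peak score above 0, and no stricter threshold was applied.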
